A study of Homo sapiens with 6 samples.

Results

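The genes described here are the core of the NRF2 antioxidant response together with the 2 ferritin subunits that store iron. They were chosen by name, as 10 genes of this pathway, and all 10 were found among the 57445 genes of the deposited expression table. They are NFE2L2, which encodes NRF2 itself, its inhibitor KEAP1, the targets HMOX1, GCLC, GCLM, TXNRD1, SRXN1 and SLC7A11, and the ferritin chains FTH1 and FTL. Their mRNA was measured by RNA sequencing in MDA-MB-231, an established human triple-negative breast cancer cell line, to ask what depletion of the receptor Ror1 does to this cell line. Cells of both groups carried a lentiviral pGIPZ vector and had been selected with puromycin at 2 µg/ml. In the shCTL group (3 libraries) the vector expressed a control hairpin, and in the shRor1 group (3 libraries) a short hairpin RNA against ROR1. Each group is 1 stably selected population with 1 hairpin. The sources used here do not say whether its 3 libraries came from separate cultures, so the p-values measure the spread between these libraries, which may be technical. The sample labels call the control vector empty, while the study's methods name a non-silencing hairpin. In the table, the control columns are also headed with the name of a solvent, DMSO, and the shRor1 columns are not, so that a solvent and the hairpin cannot be told apart.

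NRF2 is a transcription factor that is controlled mainly through the stability of its protein. KEAP1 holds it to the ubiquitin ligase built from CUL3 and RBX1, and NRF2 is degraded. Oxidants and electrophiles modify cysteines of KEAP1, NRF2 escapes, enters the nucleus and binds antioxidant response elements together with small MAF proteins, where BACH1 is a competing repressor. Its targets supply glutathione, reduce thioredoxin and peroxiredoxins, break down heme and store the iron that heme releases. Ferritin is regulated a second time at translation, since iron regulatory proteins bind an iron responsive element in the ferritin mRNAs when iron is scarce. The mRNA levels given below do not measure the amount of NRF2 protein or of ferritin protein.

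The letters by which these genes are known to be controlled were searched in GRCh37, the genome build of the deposited table, with the GENCODE 44 annotation on that build. An iron responsive element was taken as a stem with a bulged C, 5 paired bases and a loop that starts with CAGTG, and both ferritin mRNAs carried 1 in the 5′ untranslated region. They are shown because FTH1 and FTL are the genes of this group that are regulated at this element. The element of FTH1 lies on the minus strand at chr11:61735046-61735074 and that of FTL on the plus strand at chr19:49468592-49468620, with the loop of 6 bases in capitals. The third sequence is 1 of the 4 matches in the 3′ untranslated region of TFRC, the transferrin receptor that imports iron, on the minus strand at chr3:195777850-195777878.
FTH1 5′ element: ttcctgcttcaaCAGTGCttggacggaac
FTL 5′ element: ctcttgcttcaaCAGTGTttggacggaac
TFRC 3′ element: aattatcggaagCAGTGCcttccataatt
The same letters were found in 18 of 19294 annotated 5′ untranslated regions (0.0933%) and in 122 of 19778 annotated 3′ untranslated regions (0.617%).

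The antioxidant response element was searched as the letters TGAC and GCA with any 3 bases between them. Both strands were read within 1000 bases upstream of the start of the canonical transcript of each gene. Of 19894 promoters, 1852 (9.31%) held these letters, and so did 2 of the 10 genes, GCLM and GCLC. The letters overlap those of the AP-1 site TGACTCA, which 12.1% of promoters held. The match of GCLM lay 35 bases upstream of this start at chr1:94375002-94375031, and that of GCLC 871 bases upstream at chr6:53410751-53410780. Both were read on the plus strand, opposite to the gene. The gene spans given below cover all annotated transcripts. The stretch printed for GCLC lies inside the span of its gene, and that for GCLM partly so. The match upstream of NQO1, a further NRF2 target, is shown beside them, 455 bases upstream on the minus strand at chr16:69760899-69760928, and it contains the AP-1 letters. Capitals mark the 10 matching bases.
GCLM promoter: tggaagacaaTGACTAAGCAgaaatcgtag
GCLC promoter: aaatatgtgtTGACAGAGCAatgacctgtc
NQO1 promoter: gcagtcacagTGACTCAGCAgaatctgagc
For the other 8 genes these letters were not in this window, which says nothing of elements further away or with other letters.

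Expression is given in TPM, a unit in which each library sums to 1000000 and which corrects for gene length so that levels of different genes can be compared within a library. The deposited TPM keep no read counts. The study states a number of mapped reads for each replicate, which could not be assigned to the columns, so that the depth behind a single value is not known. A level of 1 TPM was reached by 16036 to 16597 genes per shCTL library and by 16317 to 17033 per shRor1 library. The samples are numbered in the labels but the columns of the table are not, so that each library is named here by its place in the table. The third-listed library of each group stood apart on the leading component of the variation within groups. It scored 0.546 in shCTL and 0.602 in shRor1, against scores from -0.338 to -0.208 in the other 4 libraries. The third-listed library also had the most genes at 1 TPM within its group, 16597 in shCTL and 17033 in shRor1. ROR1, the targeted gene, measured 15.42, 13.49 and 20.56 TPM in shCTL and 9.34, 11.93 and 14.85 TPM in shRor1, a mean of 73% of the control, and the groups overlapped (adjusted p = 0.984, limma with Benjamini-Hochberg adjustment). ROR1 mRNA was thus still measured in every shRor1 library. The study showed the knockdown of Ror1 in these cells by western blot, at the level of protein, which was not measured here. Markers of a basal B breast cancer line (VIM, CD44, EGFR, AXL and CAV1) summed to 3782 to 4027 TPM in shCTL and 3834 to 4277 TPM in shRor1. The 6 luminal markers summed to 46.67 to 52.35 TPM in shCTL and 48.22 to 56.35 TPM in shRor1. Of these, the hormone receptors ESR1 and PGR stayed at or below 0.21 TPM, while ERBB2 (26.55 to 34.90 TPM), EPCAM (12.58 to 15.80 TPM) and GATA3 (3.83 to 4.69 TPM) were measured in all 6 libraries. CDH1, the epithelial cadherin, was low, at 0.80 to 1.22 TPM in shCTL and 1.36 to 1.47 TPM in shRor1, without overlap of the groups (adjusted p = 0.984 in limma). Of the leukocyte and macrophage markers, the leukocyte antigen PTPRC stayed at or below 0.39 TPM, and the macrophage receptor CD163 measured 4.33 to 5.24 TPM in shCTL and 5.02 to 6.67 TPM in shRor1. The list summed to 174.2 to 208.1 and 142.9 to 244.6 TPM, most of it CD68, a lysosomal protein that is not limited to macrophages. The part of these cell types in the results was not tested. Erythroid markers summed to at most 0.31 TPM.

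None of the 10 genes passed the test between the groups. At an adjusted p under 0.05, limma called 0 of the 10, and 0 of all 16554 genes tested (background 0%). At an unadjusted p under 0.05 it still called 0 of the 10, against 472 genes (2.85%) of the whole table. The values of the 3 shCTL and 3 shRor1 libraries were separated for 1 of the 10, HMOX1, which was lower in shRor1, where 1.3% of all tested genes were separated in this direction and 7.78% in either direction. The adjusted p of the 10 genes ranged from 0.984 to 0.996. In bulk RNA, less mRNA per cell and fewer cells that express a gene cannot be told apart.

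The regulators stand first in the pathway, and NFE2L2 varied least of the 10 genes within the groups. NFE2L2 (ENSG00000116044, chromosome 2 from 178083395 to 178257484, minus strand) measured 96.67, 93.19 and 89.47 TPM in shCTL and 98.71, 90.02 and 96.98 TPM in shRor1. The 2 groups lay over each other, with means of 93.1 ± 3.60 and 95.2 ± 4.6 TPM (SD, n = 3). The difference was 0.03 on the log2(TPM + 1) scale (SE 0.07, 95% interval -0.13 to 0.20), the narrowest interval of the 10 genes. KEAP1 (ENSG00000079999, chromosome 19 from 10596801 to 10614234, minus strand), the sensor that presents NRF2 for degradation, measured 76.09, 68.99 and 73.31 TPM in shCTL and 76.15, 59.48 and 67.25 TPM in shRor1. Its first-listed libraries were alike in both groups and its other 2 shRor1 libraries were below every control. The means were 72.8 ± 3.58 and 67.6 ± 8.34 TPM (SD, n = 3), a log2 difference of -0.11 (SE 0.10, 95% interval -0.34 to 0.12). The ratio of NFE2L2 to KEAP1 was 1.27, 1.35 and 1.22 in shCTL and 1.30, 1.51 and 1.44 in shRor1, and the groups overlapped (exact permutation test on the ratio, two-sided p = 0.2, where 3 libraries against 3 cannot go below 0.1).

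HMOX1 (ENSG00000100292, chromosome 22 from 35776354 to 35790207, plus strand) encodes heme oxygenase 1, which opens the heme ring and frees its iron. It measured 6.12, 5.51 and 5.39 TPM in shCTL and 5.11, 4.98 and 3.88 TPM in shRor1, so that every shRor1 library was below every control. The means were 5.67 ± 0.392 and 4.66 ± 0.676 TPM (SD, n = 3), so that shRor1 was at 82.1% of the control. This was the largest difference of the 10 genes, -0.24 on the log2(TPM + 1) scale (SE 0.13, 95% interval -0.55 to 0.06). It did not pass the test, with an unadjusted p of 0.103 and an adjusted p of 0.984 from limma, and the exact permutation test gave its smallest possible two-sided p of 0.1. The third-listed shRor1 library was the lowest of all, and without it the log2 difference was -0.14. An alternative limma fit, chosen after the data were seen, took the leading component of the variation within groups as a covariate. The HMOX1 difference was the same, with an unadjusted p of 0.0487 and an adjusted p of 0.732. The component was derived from these same values. In that fit 1060 of all tested genes had an unadjusted p under 0.05, against 472 without the covariate. HMOX1 was also by far the least abundant of the 10, higher than only 33.2% of the tested genes.

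BACH1, the repressor that competes with NRF2 at the HMOX1 gene, was measured beside it as part of the list of NRF2 regulators. Its levels were 20.16, 21.27 and 20.16 TPM in shCTL and 21.95, 25.13 and 24.45 TPM in shRor1. Every shRor1 library was above every control, as for 6.48% of all tested genes. The log2 difference was 0.20 (SE 0.09), with an unadjusted p of 0.0483 and an adjusted p of 0.984 in limma, and the exact permutation p was 0.1. BACH1 thus did not pass the test either.

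The genes of glutathione synthesis did not separate the groups. SLC7A11 (ENSG00000151012, chromosome 4 from 139085251 to 139163503, minus strand), the transporter that brings in cystine, measured 98.74, 88.20 and 67.46 TPM in shCTL and 105.39, 82.62 and 65.89 TPM in shRor1. Its means of 84.8 ± 15.9 and 84.6 ± 19.8 TPM (SD, n = 3) were nearly equal, with a log2 difference of -0.011 (SE 0.19, 95% interval -0.46 to 0.44). The groups covered the same range, and the interval is wide because each group spread widely. GCLC (ENSG00000001084, chromosome 6 from 53362139 to 53481768, minus strand), the catalytic subunit of glutamate-cysteine ligase, measured 45.56, 36.68 and 30.03 TPM in shCTL and 41.52, 35.47 and 30.34 TPM in shRor1. The log2 difference was -0.05 (SE 0.17, 95% interval -0.45 to 0.34). GCLM (ENSG00000023909, chromosome 1 from 94350755 to 94375012, minus strand), the modifier subunit that makes the ligase more efficient, measured 72.45, 69.75 and 42.24 TPM in shCTL and 62.96, 62.89 and 41.59 TPM in shRor1. In both groups the third-listed library was far below the other pair, and the log2 difference was -0.12 (SE 0.24, 95% interval -0.68 to 0.43). GCLM was more abundant than GCLC in all 6 libraries. The ratio of GCLM to GCLC was 1.59, 1.90 and 1.41 in shCTL and 1.52, 1.77 and 1.37 in shRor1 (exact permutation test on the ratio, two-sided p = 0.7).

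The groups also overlapped for both genes of the thioredoxin branch. TXNRD1 (ENSG00000198431, chromosome 12 from 104609557 to 104744085, plus strand), the selenoprotein that reduces thioredoxin with NADPH, measured 676.01, 499.32 and 389.55 TPM in shCTL and 653.58, 421.53 and 353.84 TPM in shRor1. The spread within each group was far larger than the distance between the means of 522 ± 145 and 476 ± 157 TPM (SD, n = 3). The log2 difference was -0.14 (SE 0.26, 95% interval -0.75 to 0.46). SRXN1 (ENSG00000271303, chromosome 20 from 627259 to 633844, minus strand), which restores overoxidized peroxiredoxins, measured 110.54, 98.16 and 64.35 TPM in shCTL and 100.08, 84.71 and 56.95 TPM in shRor1. Its means were 91.0 ± 23.9 and 80.6 ± 21.9 TPM (SD, n = 3), and the log2 difference was -0.18 (SE 0.25, 95% interval -0.76 to 0.41). A gene model on the same strand, ENSG00000270299, shares 2292 of the 2528 exon bases of SRXN1 and was listed at 0 to 0.69 TPM, so that few of the shared reads had been assigned to it.

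Ferritin was the most abundant product of the group. FTL (ENSG00000087086, chromosome 19 from 49468566 to 49470136, plus strand), the light chain that helps the iron core to form, measured 3830.24, 2644.52 and 2361.76 TPM in shCTL and 3788.50, 2188.46 and 2100.64 TPM in shRor1. The first-listed library of each group was far above the other 2, and the means were 2946 ± 779 and 2693 ± 950 TPM (SD, n = 3). The log2 difference was -0.15 (SE 0.26, 95% interval -0.76 to 0.45). FTH1 (ENSG00000167996, chromosome 11 from 61727190 to 61735106, minus strand), the heavy chain that oxidizes ferrous iron, measured 1577.04, 1322.02 and 1164.96 TPM in shCTL and 1566.09, 1394.86 and 1279.00 TPM in shRor1. Its groups overlapped as well, with means of 1355 ± 208 and 1413 ± 144 TPM (SD, n = 3) and a log2 difference of 0.07 (SE 0.13, 95% interval -0.23 to 0.36). Both chains together took 0.541%, 0.397% and 0.353% of all TPM in shCTL and 0.535%, 0.358% and 0.338% in shRor1. The ratio of FTL to FTH1 was 2.43, 2.00 and 2.03 in shCTL and 2.42, 1.57 and 1.64 in shRor1. The lowest ratios were those of the second- and third-listed shRor1 libraries, and the groups overlapped (exact permutation test on the ratio, two-sided p = 0.3).

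Ferritin genes have many processed pseudogenes, copies of the mRNA in the genome, and reads that match several copies are divided between them by an estimate. The table listed 25 pseudogenes of FTH1 and 16 of FTL, of which 13 were at 0 in every library and 9 had a mean of at least 1 TPM. The 9 were FTH1P2, FTH1P3, FTH1P7, FTH1P8, FTH1P15, FTH1P16, FTH1P20, FTH1P23 and FTLP3, with means from 1.23 to 6.77 TPM. FTH1P7 was the most abundant, at 7.92, 5.88 and 8.21 TPM in shCTL and 6.44, 5.47 and 6.72 TPM in shRor1. Of the 9, 6 had a higher and 3 a lower mean log2 value in shRor1, from -0.20 (FTH1P7) to 0.37 (FTH1P3), and none passed the test. All pseudogenes of FTH1 summed to between 1.58% and 2.39% of the FTH1 level of a library, and those of FTL to between 0.152% and 0.239% of the FTL level. The pseudogenes thus held a small share of the assigned ferritin signal in every library.

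**Figure D1:**
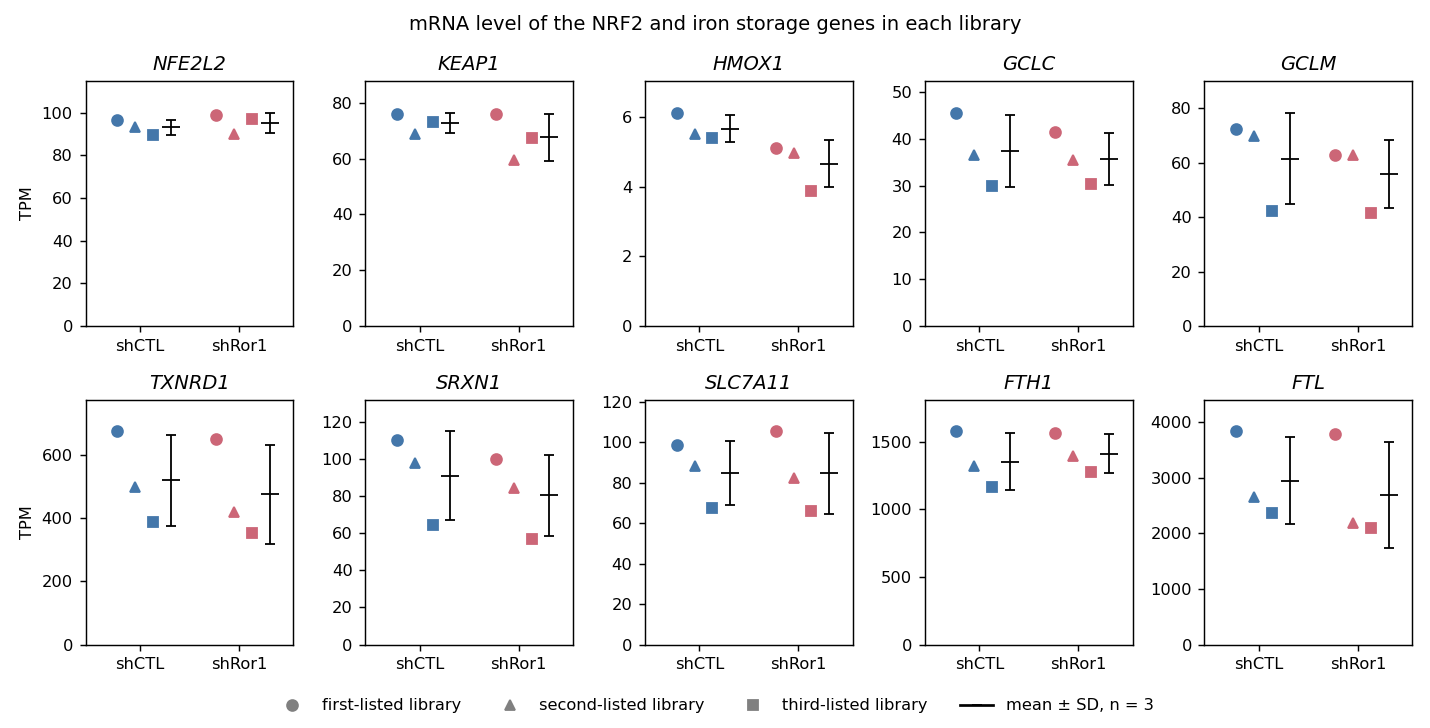
Level of each of the 10 genes in TPM (vertical axes, each from 0) in the 3 shCTL libraries (blue) and the 3 shRor1 libraries (red), with the symbol giving the place of the library in the table and the bar the mean ± SD (n = 3). The groups overlap for every gene but HMOX1, where the highest shRor1 library (5.11 TPM) is below the lowest control (5.39 TPM).

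The order of the levels was steep at both ends and flat in the middle. Averaged over the 6 libraries, FTL (2819 TPM) was above FTH1 (1384 TPM), TXNRD1 (499 TPM) and NFE2L2 (94.2 TPM), and these 4 kept that order in all 6 libraries without overlap. SRXN1 (85.8 TPM), SLC7A11 (84.7 TPM), KEAP1 (70.2 TPM) and GCLM (58.7 TPM) followed. Neighbours among NFE2L2, SRXN1, SLC7A11, KEAP1 and GCLM overlapped over the libraries and kept their order in only 3 or 4 of 6 libraries, so they are not ranked against each other. GCLC (36.6 TPM) was below GCLM in each of the 6 libraries, although their ranges overlapped, and HMOX1 (5.17 TPM) was below all others. Among the tested genes, FTL was higher than 99.8%, FTH1 than 99.3% and TXNRD1 than 98.4%. Summed, the 10 genes made up between 0.410% and 0.659% of a library.

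**Figure D2:**
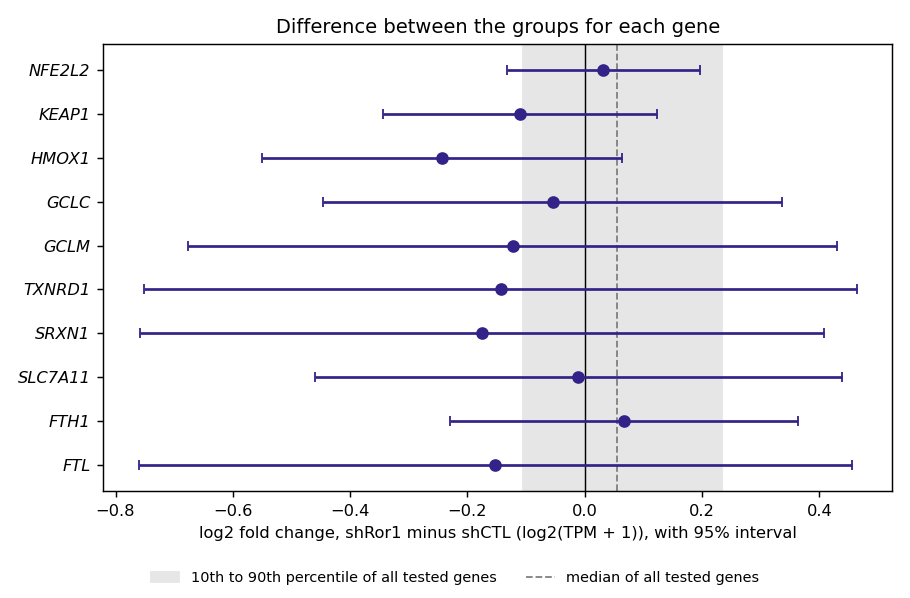
Difference between the groups for each gene as log2 fold change of shRor1 minus shCTL on the log2(TPM + 1) scale (horizontal axis), with the point estimate and its 95% interval from limma. Every interval includes 0, and the grey band is the range from the 10th to the 90th percentile of all tested genes, -0.105 to 0.234.

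Read as a group, 8 of the 10 genes had a difference below 0 and 2 (NFE2L2 and FTH1) above 0, while 33% of all tested genes had a difference below 0. The median of the 10 was -0.117, and that of all tested genes 0.0545. The share of 33% depends on the scaling of the libraries. The median of all tested genes was 0.00146 after quantile normalization and 0.000563 after median ratio scaling. The median of the 10 was then -0.107 and -0.177, with 8 and 9 genes below 0. The median of the 10 changed sign when certain single libraries were left out of 1 group only. Without the first-listed shCTL library it was 0.0558, and without the third-listed shRor1 library 0.0491, with 3 of 10 genes below 0 in each case. For most of the 10 genes these libraries were the highest and the lowest of their group, as described below. Leaving out 1 of them therefore also shifts the balance between the groups. Without the third-listed library of both groups the median was -0.125, with 9 of 10 genes below 0. The standard errors of TXNRD1, FTL, SRXN1 and GCLM were from 0.237 to 0.261, against a median of 0.129 over all tested genes, so that the test was least precise for these 4 genes.

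The libraries of each group shared an order over most of the 10 genes, which was noticed after the values were seen. All 10 genes were highest in the first-listed library of both groups, as were 2244 of the 16554 tested genes. All but NFE2L2 and KEAP1 were also lowest in the third-listed library of both groups, that is 8 of 10, against 836 of 16554 tested genes (5.05%). Among the 11144 tested genes with a mean of at least 5 TPM the share was 6.54%. None of the 10 had the opposite order, which 1642 of all tested genes (9.92%) had. The 2 genes outside the order are the transcription factor and its inhibitor, and the 8 within it are the NRF2 targets and the ferritin chains. This split rests in part on small differences, since NFE2L2 missed the order only in shRor1. In the third-listed shCTL library, NFE2L2 deviated from its group mean by -0.056 and HMOX1 by -0.061 on the log2(TPM + 1) scale.

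The size of this spread differed between the 10 genes. Between the highest and the lowest library of a group, TXNRD1 differed 1.74-fold in shCTL and 1.85-fold in shRor1, FTL 1.62- and 1.8-fold, SRXN1 1.72- and 1.76-fold, GCLM 1.72- and 1.51-fold and SLC7A11 1.46- and 1.6-fold. The corresponding values were 1.52 and 1.37 for GCLC, 1.35 and 1.22 for FTH1 and 1.14 and 1.32 for HMOX1. NFE2L2 differed 1.08- and 1.10-fold and KEAP1 1.10- and 1.28-fold. The median tested gene with a mean of at least 5 TPM differed 1.16-fold in shCTL and 1.22-fold in shRor1, and 96.5% of these genes had a smaller spread than TXNRD1 in shCTL. Of 6420 protein-coding genes with a mean of at least 20 TPM, 561 had this order, and when these were ranked by the smaller of their fold ranges in the 2 groups, TXNRD1 was at rank 3, SRXN1 at rank 4, FTL at rank 5 and GCLM at rank 8. SLC7A11 was at rank 13, GCLC at rank 22 and FTH1 at rank 90. First in that ranking was TRIM16, a ubiquitin ligase of the list of NRF2 targets, at 74.34, 60.33 and 30.03 TPM in shCTL and 77.13, 45.63 and 27.31 TPM in shRor1. The libraries lowest for these genes were those that stood apart on the leading component, which held 40.8% of the variation within groups. Whether depth, culture or RNA quality went with this component was not tested, since the mapped reads that the study states per replicate could not be assigned to columns.

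**Figure D3:**
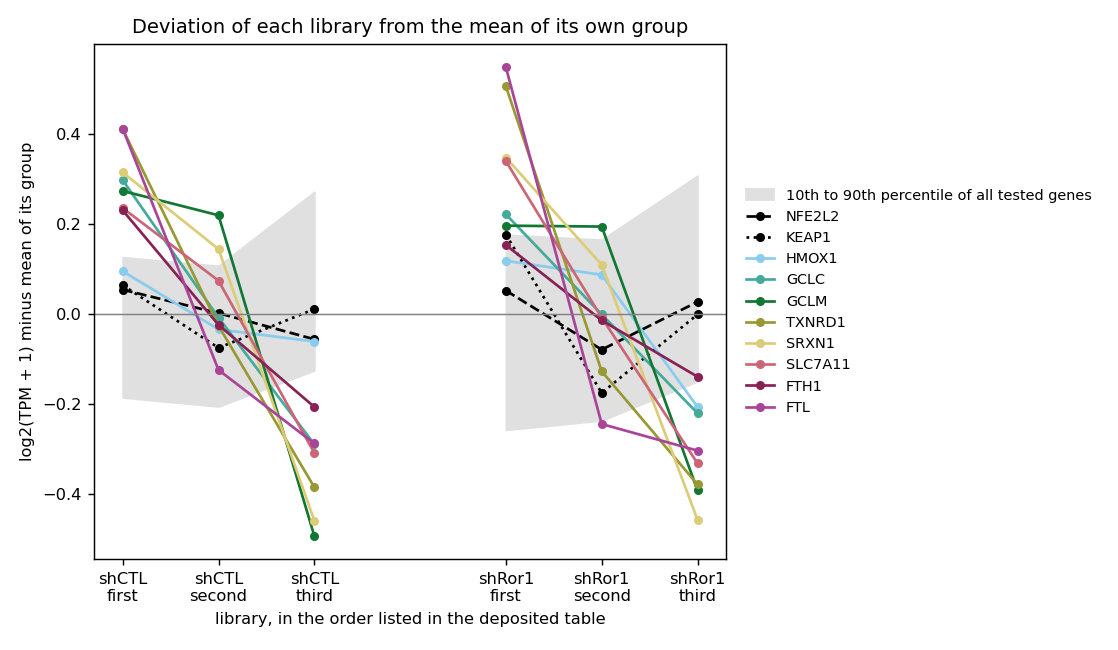
Deviation of each library from the mean of its own group on the log2(TPM + 1) scale (vertical axis) for the 6 libraries in the order of the table (horizontal axis), with 1 line per gene that only connects its values and the 10th to 90th percentile of all tested genes in grey. The 8 coloured genes are highest in the first-listed and lowest in the third-listed library of both groups. NFE2L2 (dashed) and KEAP1 (dotted) stay close to 0 in the third-listed libraries, as does HMOX1 in that of shCTL (-0.061).

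Further genes of the pathway were read from 8 lists with 112 distinct genes, of which 109 were found in the table and 99 passed the filter on low values, the 10 genes included. Of the 89 that are not among the 10, 0 passed the adjusted threshold, 38 had a difference above 0 and 51 below 0, with a median of -0.0164. At an unadjusted p under 0.05, 1 of the 89 was called, BACH1, against 2.85% of all tested genes. The groups did not overlap for 5 of these 89 genes, against 7.78% of all tested genes, so that their number does not exceed the background. They were chosen for naming after their values were seen. BACH1, ACSL4, GSTO1 and UGDH were higher and MAFF was lower in every shRor1 library.

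Among the other NRF2 regulators, RBX1, the ring subunit of the ligase that degrades NRF2, had the most negative log2 difference, -0.20 (SE 0.11), and BACH1 the most positive. In the list of glutathione synthesis and use, 15 of 21 tested genes had a difference below 0 and 6 above 0, with a median of -0.0284. Its most negative gene was SLC3A2, the heavy chain that pairs with SLC7A11 in the cystine transporter, at 362.49, 293.98 and 258.67 TPM in shCTL and 354.27, 213.65 and 210.35 TPM in shRor1. The log2 difference of SLC3A2 was -0.26 (SE 0.21) and its groups overlapped, and the most positive gene was MGST2, a microsomal glutathione transferase, at 0.16 (SE 0.10).

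In the thioredoxin and peroxiredoxin list, 11 of 14 tested genes were below 0 and 3 above 0, with a median of -0.0364, from SESN2 at -0.17 among the genes outside the 10 to PRDX2 at 0.05. SESN2 is a stress-induced protein and PRDX2 a cytosolic peroxiredoxin. Of the superoxide and peroxide enzymes, 2 of 3 tested genes were above 0 and 1 below 0, with SOD1, the cytosolic superoxide dismutase, at -0.02 (SE 0.07) and the secreted SOD3 at 0.35 (SE 0.22). The list of NADPH supply and detoxification was even, with 10 genes above and 10 below 0. NQO1, the quinone reductase that is widely used to read NRF2 activity, measured 586.05, 474.04 and 402.63 TPM in shCTL and 568.86, 450.37 and 381.73 TPM in shRor1, with a log2 difference of -0.06 (SE 0.18). Its groups overlapped and its libraries had the same order as those of TXNRD1. The ends of that list were OSGIN1, an oxidative stress gene, at -0.30 (SE 0.37), and ABCC3, an exporter of organic anions, at 0.47 (SE 0.21, unadjusted p = 0.0526 and adjusted p = 0.984 in limma). ABCC3 measured 16.65, 18.60 and 23.01 TPM in shCTL and 21.83, 24.32 and 37.52 TPM in shRor1, and its third-listed library was the highest of each group.

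The genes of iron import and export did not pass the test either. Of the 19 tested genes for heme breakdown and iron handling, 9 were above and 10 below 0, with a median of -0.00564. TFRC, whose mRNA is stabilized through the 3′ elements shown above when iron is scarce, measured 390.13, 364.59 and 355.66 TPM in shCTL and 383.64, 351.66 and 323.39 TPM in shRor1, with a log2 difference of -0.07 (SE 0.08). The groups overlapped, and TFRC had the same order of libraries as the ferritin chains. SLC40A1, the iron exporter ferroportin, was low and had the most positive difference of the list, 0.20 (SE 0.17). Of the 8 tested genes of ferroptosis, the iron-dependent cell death through lipid peroxides, 3 were above 0 and 5 below 0, from AIFM2, which regenerates lipid antioxidants, at -0.15 (SE 0.16) to ACSL4, which supplies the oxidizable lipids, at 0.15 (SE 0.07). ACSL4 measured 75.74, 72.86 and 74.37 TPM in shCTL and 79.39, 85.57 and 82.78 TPM in shRor1, so that the groups did not overlap, and it did not pass the test (unadjusted p = 0.0542, adjusted p = 0.984 in limma). ATF4, the amino acid stress factor that also acts on SLC7A11, was listed together with its targets. Of these 9 genes, 2 were above and 7 below 0, with a median of -0.0831. They ran from PHGDH, the first enzyme of serine synthesis, at -0.17 (SE 0.13) to TRIB3, a pseudokinase, at 0.09 (SE 0.12).

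**Figure D4:**
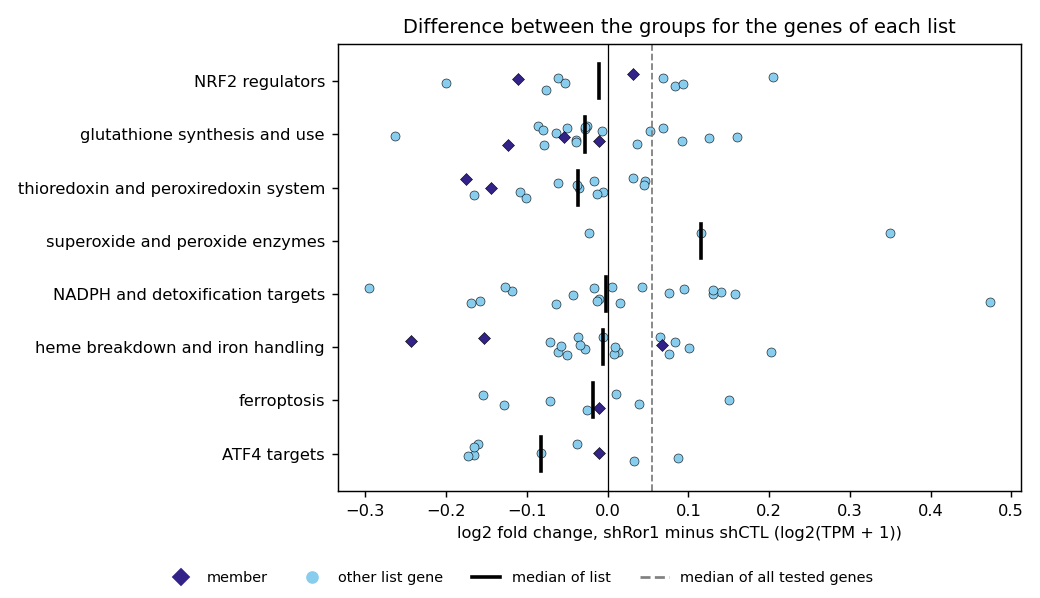
Log2 fold change of shRor1 minus shCTL on the log2(TPM + 1) scale (horizontal axis) for each tested gene of the 8 lists (rows), with the 10 genes as dark diamonds, other genes as light circles, the list median as a black bar and the median of all tested genes (0.0545) as a dashed line. Points lie on both sides of 0 in every list, and none passed the adjusted threshold.

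The order of the libraries was also counted over the lists. It was found in 22 of the 89 list genes outside the 10 (24.7%), against 5.05% of all tested genes. More abundant genes had it more often, with 6.54% at a mean of at least 5 TPM. Of the protein-coding genes with a mean of at least 20 TPM, 561 of 6420 had it. By list, the 10 genes were counted where they belong. The order was found in 5 of 9 genes of the ATF4 list, 6 of 14 genes of the thioredoxin system and 3 of 8 ferroptosis genes. It was also found in 7 of 20 genes of NADPH supply and detoxification, 7 of 21 glutathione genes and 5 of 19 genes of heme and iron. Of the NRF2 regulators only 1 of 10 had it, SQSTM1, an autophagy adaptor that binds KEAP1 and is itself an NRF2 target. None of the 3 superoxide and peroxide enzymes had it. These lists share genes with each other. The order was first noticed in the 10 genes, so that the counts by list, which include them, are not independent of that choice. The order is a description of 6 libraries, not a comparison of shCTL with shRor1.

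**Figure D5:**
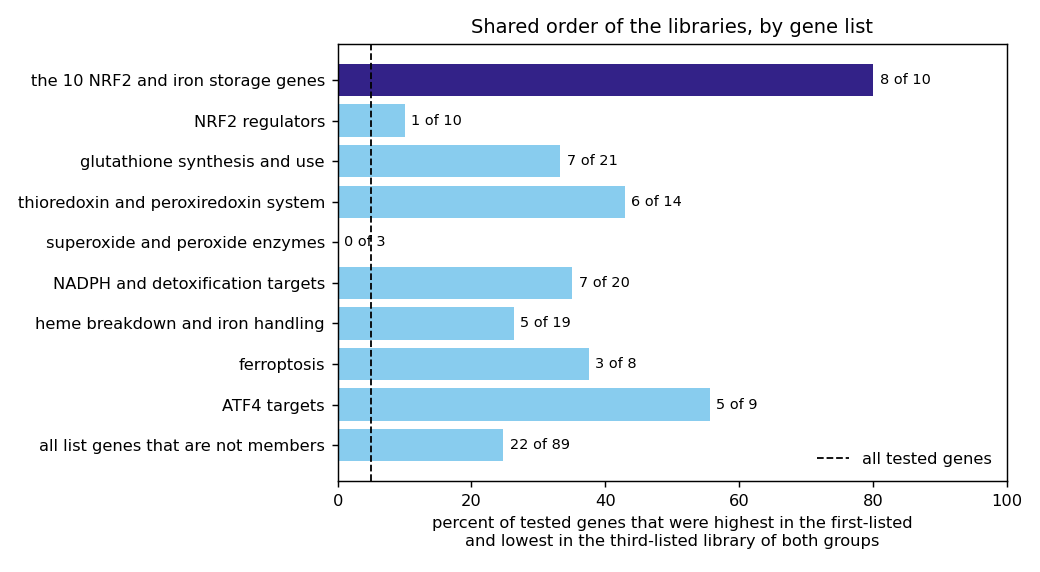
Percent of tested genes (horizontal axis, 0 to 100) that were highest in the first-listed and lowest in the third-listed library of both groups, for the 10 genes (dark bar) and for each list (light bars), with counts beside the bars. The bar of each list includes those of the 10 genes that belong to it, in which the order was first noticed, and the last bar leaves them out. The dashed line is the share among all tested genes, 5.05%, and among tested genes with a mean of at least 5 TPM it was 6.54%.

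The variation of NFE2L2 over the 6 libraries was also set beside that of other genes. Among 9972 protein-coding genes with a mean of at least 5 TPM, the 3 with the highest Pearson correlation to NFE2L2 were DOCK4 (r = 0.997), ARHGEF2 (r = 0.991) and MRPS16 (r = 0.974). Over the same 6 libraries, r with NFE2L2 was 0.648 for FTH1, 0.618 for FTL, 0.549 for TXNRD1, 0.518 for KEAP1, 0.514 for GCLC, 0.482 for SLC7A11, 0.286 for SRXN1, 0.206 for GCLM and -0.175 for HMOX1. These values describe 6 points that share group, library and depth. DOCK4, ARHGEF2 and MRPS16 were picked as the highest of 9972 genes, and no r was tested. NFE2L2 also shares 2037 of its 14975 annotated exon bases with a long noncoding RNA on the same strand, ENSG00000213963, which measured between 4.29 and 6.05 TPM, so that their reads may be divided between them. GCLC shares 529 of 8618 exon bases with such an RNA, ENSG00000231683, at 0.93 to 1.23 TPM. On the opposite strand, FTH1 shares 1267 of 2004 exon bases with BEST1, NFE2L2 3509 with HNRNPA3, SLC7A11 865 of 9645 with SLC7A11-AS1 and GCLC 305 with GCLC-AS1. The library kit marks the strand, but whether the counting used it is not given in the sources used here, so reads of these stretches may not be told apart.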

How the data were processed

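The 10 genes and the gene lists were chosen with earlier results of these data known, the lists by hand from textbook knowledge. Stranded libraries were sequenced as single reads of 50 bases. Per the labels and the study's methods, the authors processed reads with CASAVA 1.8.2 and FastQC 0.10.0, aligned them to GRCh37 with STAR and Ensembl 73, and estimated gene abundances with RSEM 1.2.5. The deposited values are TPM with 2 decimals that sum to 1000000 in each library, although the table is called expected counts. A count model, which the authors fitted, could therefore not be used. The mapped reads per replicate that the study states could not be assigned to columns. TPM are shares, so that a rise of some genes lowers others. Whether reads were counted by strand is not given in the sources used here.

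The test was limited to genes that reached 1 TPM in 3 or more libraries, which all 10 did. log2(TPM + 1) was compared with limma 3.58.1 (R 4.3.3) with a mean-variance trend, and p-values were adjusted over all 16554 genes by Benjamini-Hochberg. A pseudocount of 1 understates changes of low genes. The fit was run on simulated data in which the genes varied independently. That simulation did not hold the variation shared between libraries that is described above. Exact permutation tests (scipy 1.17.1, two-sided) compared 3 with 3 libraries. Named by rule were all 10 genes, ROR1 and NQO1. The rule also took the genes with the most positive and most negative difference of each list outside the 10. It further took ferritin pseudogenes with a mean of at least 1 TPM and the 3 genes most like NFE2L2. Others were named after their values were seen, among them MAFF, GSTO1, UGDH, TRIM16, SQSTM1, KYNU, ODC1, ITGB4, FN1, FADS2 and RPL39P3. Column headers carry no replicate number. TXNIP, SOD2, NCOA4 and PECAM1 were not analysed here.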

Additional observations from a re-analysis of the deposited data

How the results depend on the processing

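No paired analysis was possible because no replicate number could be read from the headers, and the place of a column was not taken as a pairing. In 19 alternative fits, 0 of the 10 genes and 0 of the further list genes were called, and the smallest adjusted p of any of the 10 was 0.493 (limma). Over all genes 0 were called, except 1 without the third-listed shRor1 library and 1 without both third-listed libraries, the pseudogene RPL39P3 each time (range 0 to 1 over the libraries left out in turn). The number at an unadjusted p under 0.05 was 472, with 1363 without a filter, 227 at a mean of at least 5 TPM, 222 in protein-coding genes, 859 with array weights, 1060 with the residual component and 278 to 1720 with 1 library left out. Of the 472, 382 were higher in shRor1, against 200 of 371 after quantile normalization and 230 of 393 after median ratio scaling.

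Of 192 alternative log2 differences of the 10 genes, 176 kept their sign, and KEAP1 (-0.199 to -0.023) and HMOX1 (-0.333 to -0.141) did so throughout. NFE2L2 turned to -0.029 with median ratio scaling and to -0.010 without both third-listed libraries, and FTH1 to -0.001 with array weights (with its pseudogenes, -0.0001). With 1 library left out in turn, the differences ran from -0.199 to 0.094 for GCLC, -0.369 to 0.072 for GCLM, -0.396 to 0.061 for TXNRD1, -0.404 to 0.053 for SRXN1, -0.181 to 0.154 for SLC7A11, -0.036 to 0.182 for FTH1 and -0.426 to 0.053 for FTL, and with pseudogenes from -0.035 to 0.184 for FTH1 and -0.426 to 0.053 for FTL. The libraries that turned a sign were the first- and third-listed ones and, for SLC7A11, also the second-listed shCTL library (0.026). Other causes were not tested. The residual component and the pair of third-listed libraries were chosen after the data were seen. Depth limits could not be given for TPM.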

Other observations

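The opposite order, highest in the third-listed and lowest in the first-listed library of both groups, was found in 484 of the 6420 protein-coding genes with a mean of at least 20 TPM. None of the 10 NRF2 and ferritin genes was among them. The widest fold range had ITGB4, an integrin subunit of hemidesmosomes, at 20.75, 27.08 and 69.65 TPM in shCTL and 23.77, 36.35 and 116.59 TPM in shRor1. FN1, the matrix protein fibronectin, followed at 15.59, 20.84 and 43.88 TPM and 17.02, 39.34 and 76.86 TPM. FADS2, a fatty acid desaturase, measured 107.78, 129.50 and 231.85 TPM and 114.08, 144.36 and 235.18 TPM. These genes were named after their values were seen, and the groups overlapped for each of them.

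Beside the NRF2 targets, the genes with the widest range in the order of TXNRD1 included KYNU, an enzyme of tryptophan breakdown, at 35.37, 29.55 and 16.43 TPM in shCTL and 38.17, 29.68 and 21.34 TPM in shRor1. ODC1, the first enzyme of polyamine synthesis, measured 385.81, 324.14 and 243.06 TPM and 382.36, 283.61 and 199.14 TPM. Both were also named after their values were seen.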
